A study of Homo sapiens with 18 samples.

Results

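The genes described here load amino acids onto tRNAs or belong to the response that cells mount when amino acids run short. They were taken by name from the gene annotation of the array: aminoacyl-tRNA synthetase symbols of the usual pattern, together with ASNS, the serine and glycine enzymes PHGDH, PSAT1, PSPH, SHMT1, SHMT2 and MTHFD2, the stress genes ATF4, CHAC1, DDIT3 and TRIB3, and the amino acid transporters SLC7A11, SLC7A5 and SLC3A2. The rule found 49 of the 18417 genes that have a probe set of their own, each read through its brightest probe set. These are 35 tRNA synthetases (19 cytosolic and 16 mitochondrial), 6 serine, glycine and one-carbon enzymes, 5 genes of ATF4 and its stress targets, and 3 transporters.

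RNA came from NB4 cells, a line established from acute promyelocytic leukaemia that carries the PML-RARA fusion and matures towards neutrophils when given all-trans retinoic acid (ATRA). The arrays were Affymetrix gene-level arrays, 18 in all, with 3 biological replicates in each of 6 groups. These groups were TG2 knockout cells without treatment and after 1 µM ATRA for 48 or 72 h, and wild-type cells without treatment and after the same ATRA treatment for 48 or 72 h. Both lines were kept in RPMI medium with serum. TG2 is tissue transglutaminase, made from TGM2, one of the genes that ATRA induces in this line. The altered line is labelled a knockout, yet the codes of its samples contain KD, and the labels do not say how the line was made or whether it is 1 clone. A difference between the genotypes is therefore a difference between these 2 lines. The p-values measure the spread between the cultures of these lines, pooled over the 6 groups.

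An aminoacyl-tRNA synthetase joins an amino acid to its tRNAs. Cells keep mostly separate enzymes for the cytosol and for mitochondria, all of them encoded in the nucleus. GARS1 and KARS1 serve both places. When an amino acid is scarce its tRNAs stay uncharged, the kinase GCN2 phosphorylates the initiation factor eIF2, and general translation slows while the mRNA of the transcription factor ATF4 is translated more. ATF4 then switches on genes for amino acid synthesis, uptake and charging through C/EBP-ATF response elements. ATF4 protein is therefore not read directly by an array, whereas the mRNA levels of its target genes are.

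Those elements are shown first, because they mark which of the 49 genes carry the best known ATF4 recognition letters close to their start. Promoter windows from 250 bases before to 50 bases after a transcript start were taken from RefSeq (GRCh38.p14), and 41 of the 49 genes had at least 1 window. The letters TGATGNAA, searched on both strands, occurred in the windows of 11 of the 41 genes (26.8%), and in the windows of 4.46% of all 27305 genes with a promoter entry (3.62% of 35116 windows). The match was found in 7 of 16 cytosolic synthetases, 1 of 14 mitochondrial synthetases, 2 of 5 genes of the ATF4 group, 1 of 2 transporters and 0 of 4 serine, glycine and one-carbon genes. Each stretch below runs 5′ to 3′ on the strand that reads TGATGNAA, with those 8 bases in capitals. A match is a description of letters and not evidence of binding.
ASNS, chr7:97872458-97872487, minus strand, match 68 bases before the start: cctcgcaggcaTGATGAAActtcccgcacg
CHAC1, chr15:40953251-40953280, minus strand: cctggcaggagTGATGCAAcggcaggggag
CARS1, chr11:3057407-3057436, plus strand, match across the start: ttcctagaatcTGATGCAAccgccgccccg
AARS1, chr16:70289675-70289704, plus strand: tctaacttggcTGATGCAActgcgagaaaa
GARS1, chr7:30594834-30594863, minus strand: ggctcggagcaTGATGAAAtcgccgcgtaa
IARS1, chr9:92293692-92293721, plus strand: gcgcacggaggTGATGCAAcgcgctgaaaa
MARS1, chr12:57488053-57488082, minus strand: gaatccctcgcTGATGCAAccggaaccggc
NARS1, chr18:57621804-57621833, minus strand: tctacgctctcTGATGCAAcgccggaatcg
TARS1, chr5:33440956-33440985, minus strand: gctggaccagcTGATGCAAtcgaaaggcgc
SLC3A2, chr11:62881725-62881748, minus strand: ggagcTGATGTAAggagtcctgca
YARS2, chr12:32756076-32756105, minus strand, the mitochondrial enzyme among them: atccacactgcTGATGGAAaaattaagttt

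The other motif searched was the E-box CACGTG, which reads the same on both strands and which MYC and related factors bind. It lay in the windows of 6 of the 41 genes (14.6%), against 8.77% of all genes with a promoter entry, and in 3 of the 14 mitochondrial synthetases. The absence of either motif says only that these letters were not in these windows.

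Some facts about the arrays bear on every result that follows. The first principal component of all probe sets, with 57.1% of the variance, separated ATRA-treated from untreated arrays, and 4 treated arrays lay nearer to the untreated ones than the other ATRA arrays did: TG2 knockout 48 h replicates 1 and 3, TG2 knockout 72 h replicate 2 and wild-type 48 h replicate 1. TGM2 itself read 6.30 to 6.51 on the untreated knockout arrays, 10.56 to 11.29 at 48 h and 10.87 to 11.61 at 72 h. In wild-type cells TGM2 read 6.27 to 6.61 without treatment, 12.06 to 12.40 at 48 h and 12.19 to 12.54 at 72 h. The altered line thus made TGM2 transcript, and its TGM2 differed from wild-type by -1.31 on the log2 scale at 48 h (adjusted p = 0.0345), -1.13 at 72 h (adjusted p = 0.0267) and -0.04 without treatment (adjusted p = 1). Of 5 promyelocyte granule genes, MPO, PRTN3, AZU1, CTSG and ELANE lay at the 99.6, 99.5, 87, 76.9 and 69.8 percentile of probe sets. With ATRA they went both ways: at 72 h CTSG and MPO differed by -2.93 and -0.46 in knockout cells and -2.48 and -0.47 in wild-type cells, and AZU1 by 0.84 and 1.13, all called. MYC fell with ATRA, by 0.65 and 0.77 at 48 and 72 h in knockout cells and by 0.91 and 1.05 in wild-type cells on the log2 scale (adjusted p at most 0.00526). Of 10 cycling cell markers, 6 and 7 fell at 48 and 72 h in knockout cells (19.9% and 19.2% of all probe sets). In wild-type cells 6 fell at both times (19.6% and 21%). CCNB1, MCM2 and MCM5 were called in none of these comparisons. The mean level of the 10 markers was 10.38 to 10.42 untreated, 9.70 to 10.01 at 48 h and 9.55 to 10.11 at 72 h in knockout cells, and 10.40 to 10.44, 9.66 to 10.14 and 9.61 to 9.98 in wild-type cells. The part of MYC or of cell cycling in the results below was not tested. Mean levels of 8 mature neutrophil markers were 5.98 to 6.06 untreated, 6.88 to 6.95 at 48 h and 6.77 to 7.25 at 72 h in knockout cells, and 5.87 to 5.99, 7.16 to 7.43 and 7.16 to 7.51 in wild-type cells.

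The first question was what ATRA did to these genes in each line. A set of synthetases, chiefly mitochondrial, fell in both lines, while ATF4 and its stress targets passed the test in neither. A gene counts as called when its adjusted p in limma, over all 33297 probe sets, is under 0.05. The shares of all probe sets given beside the counts are a broad background. It includes 12083 probe sets that name no gene, whereas nearly all of the 49 genes are bright. In knockout cells 1 of the 49 genes rose and 19 fell at 48 h, where 21.5% of all probe sets rose and 19.9% fell, and 3 rose and 17 fell at 72 h, where 22.8% rose and 19.2% fell. Wild-type cells showed 2 genes that rose and 16 that fell at 48 h (19.3% and 19.6% of all probe sets), and 2 that rose and 20 that fell at 72 h (23.1% and 21%). The median log2 difference of the 49 genes was -0.29 at 48 h and -0.04 at 72 h in knockout cells and -0.32 and -0.42 in wild-type cells, against 0.14, 0.13, 0.10 and 0.12 over all probe sets. With quantile normalization between arrays the calls became 6 higher and 13 lower, 10 and 11, 4 and 12, and 4 and 14 in the same 4 comparisons. Of all 33297 probe sets 5581 were then higher and 5326 lower, 5462 and 5254, 5564 and 5169, and 6195 and 5674. The medians of the 49 genes became -0.08, 0.13, -0.16 and -0.22, so all 4 medians depend on the scaling and that of knockout cells at 72 h turned positive. In bulk RNA, fewer cells of a kind and less RNA per cell cannot be told apart, and the comparisons at 48 and 72 h share the untreated arrays of their line.

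Calls of at least 2-fold among the genes that fell numbered 7 of 49 and 5 of 49 in knockout cells at 48 and 72 h, and 5 and 8 of 49 in wild-type cells. The shares of all probe sets that met the same rule were 7.99%, 7.45%, 8.25% and 9.39%. At 48 h 16 of the 49 genes fell and 1 rose in both lines, against 16.9% and 14.2% of all probe sets. At 72 h 15 fell and 2 rose in both lines (16.7% and 16.3% of all probe sets), and none was called in opposite directions at either time. In all 4 comparisons 15 of the 49 genes, all synthetases, fell (14.8% of all probe sets). They were the mitochondrial CARS2, EARS2, FARS2, MARS2, NARS2, RARS2, SARS2, WARS2 and YARS2 and the cytosolic FARSA, FARSB, HARS1, KARS1, QARS1 and RARS1. TARS1 rose in all 4 (11.3% of all probe sets), and 23 genes were called in none (40.1%).

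**Figure D1:**
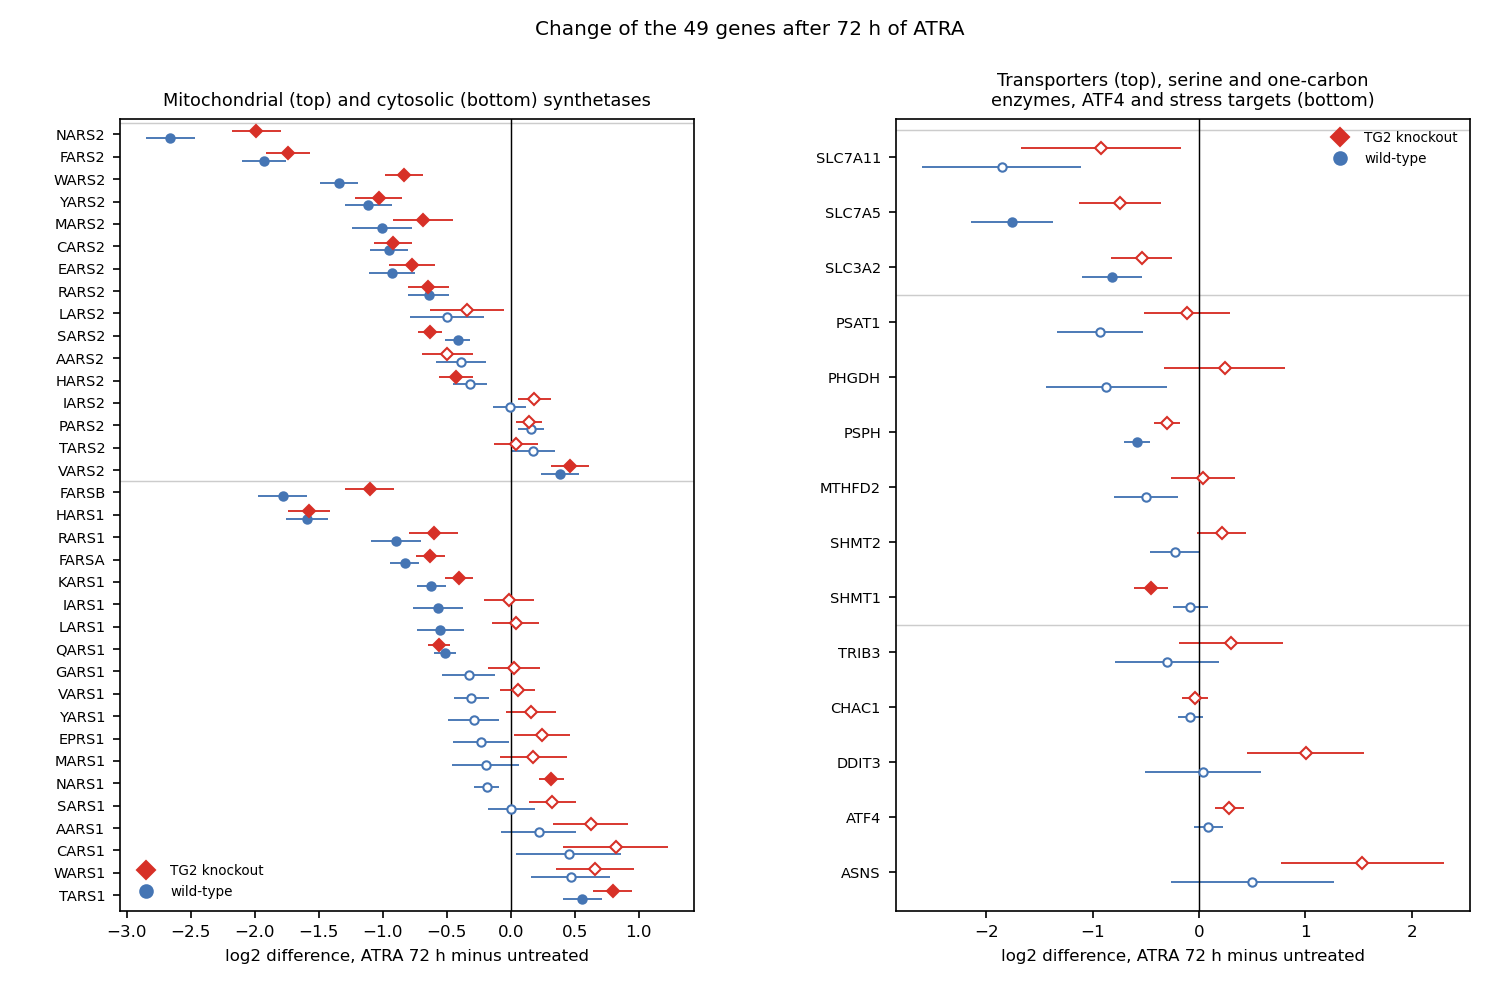
Log2 difference of each of the 49 genes after 72 h of ATRA over untreated cells (horizontal axis) with its standard error, TG2 knockout as red diamonds and wild-type as blue circles, filled where limma's adjusted p is under 0.05. The mitochondrial synthetase NARS2 (-1.99 in knockout, -2.66 in wild-type cells) lies furthest to the left, and TARS1 (0.80 and 0.56) lies right of 0 in both lines.

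The mitochondrial synthetases charge the tRNAs used to translate the proteins of the mitochondrial genome, all of them parts of the respiratory chain or ATP synthase. Of 16, 9 fell and 0 rose at 48 h in knockout cells (19.9% and 21.5% of all probe sets), and 10 fell and 1 rose at 72 h (19.2% and 22.8%). In wild-type cells 9 fell and 1 rose at each time (19.6% and 19.3% of all probe sets at 48 h, 21% and 23.1% at 72 h). The medians over the 16 were -0.70, -0.64, -0.45 and -0.57 in the order knockout 48 h, knockout 72 h, wild-type 48 h, wild-type 72 h.

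NARS2, the mitochondrial asparaginyl-tRNA synthetase, had the largest change. NARS2 read 10.12, 10.01 and 10.02 in untreated knockout cells, 8.25, 7.57 and 8.28 at 48 h and 7.91, 8.28 and 7.99 at 72 h. Wild-type NARS2 read 10.12, 10.12 and 10.09 untreated, 7.95, 7.96 and 7.68 at 48 h and 7.02, 7.64 and 7.69 at 72 h. All ATRA arrays lay more than 1 log2 unit below all untreated arrays. NARS2 fell by 1.99 ± 0.19 (SE) on the log2 scale at 72 h in knockout cells (3.97-fold, adjusted p = 9.52e-07) and the wild-type difference was -2.66 (6.32-fold lower, adjusted p = 3.63e-08).

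FARS2, which charges mitochondrial phenylalanine tRNA, read 8.44, 8.33 and 8.30 untreated, 6.89, 6.19 and 6.58 at 48 h and 6.59, 6.84 and 6.41 at 72 h in knockout cells. Wild-type FARS2 read 8.24, 8.35 and 8.38 untreated, 6.92, 6.77 and 6.55 at 48 h and 6.55, 6.51 and 6.12 at 72 h. Treated and untreated arrays did not overlap in either line, and FARS2 fell 3.35-fold at 72 h in knockout cells and 3.81-fold in wild-type cells (adjusted p = 1.28e-06 and 3.44e-07).
WARS2, the mitochondrial tryptophan enzyme, read 8.02, 8.10 and 8.0 untreated, 6.95, 6.82 and 7.03 at 48 h and 7.35, 7.39 and 6.87 at 72 h in knockout cells. Wild-type WARS2 read 8.03, 7.93 and 7.97 untreated, 7.30, 6.84 and 7.14 at 48 h and 6.47, 6.65 and 6.78 at 72 h. It fell in both lines at both times, and the 72 h arrays of the lines did not overlap: the lowest knockout value was 6.87 and the highest wild-type value 6.78. YARS2, the tyrosine enzyme of mitochondria, read 8.27, 8.32 and 8.27 untreated, 7.78, 7.14 and 7.59 at 48 h and 7.14, 7.67 and 6.95 at 72 h in knockout cells. Wild-type YARS2 read 8.36, 8.28 and 8.28 untreated, 7.48, 7.66 and 7.31 at 48 h and 6.98, 7.43 and 7.17 at 72 h. YARS2, the only mitochondrial synthetase with a TGATGNAA window, fell with the others, by 1.03 at 72 h in knockout cells (adjusted p = 0.00036) and by 1.11 in wild-type cells (adjusted p = 0.000159).

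SARS2, the mitochondrial serine enzyme, fell less. SARS2 read 8.48, 8.59 and 8.52 untreated, 7.80, 7.96 and 7.99 at 48 h and 7.95, 7.86 and 7.88 at 72 h in knockout cells. Wild-type SARS2 read 8.36, 8.33 and 8.40 untreated, 8.03, 7.94 and 7.90 at 48 h and 7.82, 8.01 and 8.01 at 72 h. All treated arrays lay below all untreated ones, and its log2 differences at 48 and 72 h were -0.61 and -0.63 in knockout cells and -0.41 and -0.42 in wild-type cells. Under quantile normalization the wild-type calls of SARS2 were lost (-0.18, adjusted p = 0.185, and -0.16, adjusted p = 0.242). CARS2 and EARS2, for cysteine and glutamate, and MARS2 and RARS2, for methionine and arginine, had log2 differences between -0.50 (RARS2, wild-type 48 h) and -1.01 (MARS2, wild-type 72 h), all called.

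Other mitochondrial synthetases did not follow. VARS2, the valine enzyme, was 0.46 ± 0.15 (SE) higher at 72 h in knockout cells and 0.41 and 0.38 higher at 48 and 72 h in wild-type cells (adjusted p = 0.0204, 0.0392 and 0.0456). HARS2, the histidine enzyme, fell by 0.43 in knockout cells at 72 h (adjusted p = 0.0172) and was called nowhere else. IARS2, for isoleucine, read 9.07, 9.07 and 9.06 untreated, 9.30, 8.97 and 9.22 at 48 h and 9.21, 9.35 and 9.19 at 72 h in knockout cells. Wild-type IARS2 read 9.04, 9.03 and 9.0 untreated, 9.41, 9.08 and 8.95 at 48 h and 9.08, 9.17 and 8.79 at 72 h. In the values as deposited IARS2 passed no ATRA test, its log2 difference in wild-type cells at 72 h being -0.01, whereas after quantile normalization it was called higher there (0.28, adjusted p = 0.0431).
PARS2, for proline, read 8.57, 8.69 and 8.67 untreated, 8.75, 8.74 and 8.73 at 48 h and 8.84, 8.70 and 8.82 at 72 h in knockout cells. Wild-type PARS2 read 8.51, 8.55 and 8.51 untreated, 8.39, 8.75 and 8.59 at 48 h and 8.56, 8.81 and 8.67 at 72 h. TARS2, for threonine, read 8.47, 8.34 and 8.14 untreated, 8.43, 8.67 and 8.11 at 48 h and 8.11, 8.68 and 8.28 at 72 h in knockout cells. Wild-type TARS2 read 8.27, 8.27 and 8.29 untreated, 8.46, 8.0 and 8.19 at 48 h and 8.39, 8.66 and 8.30 at 72 h. Neither passed an ATRA test in the deposited values, and PARS2 was called higher after quantile normalization in knockout cells at both times and in wild-type cells at 72 h (0.45, adjusted p = 0.00902).

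Of the 19 cytosolic synthetases, 1 rose and 6 fell at 48 h (21.5% and 19.9% of all probe sets) and 2 rose and 6 fell at 72 h (22.8% and 19.2%) in knockout cells. In wild-type cells 1 rose and 6 fell at 48 h (19.3% and 19.6%), and 1 rose and 8 fell at 72 h (23.1% and 21%). Their medians were -0.11 and 0.05 in knockout cells and -0.15 and -0.31 in wild-type cells at 48 and 72 h.

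HARS1, the cytosolic histidine enzyme, read 10.81, 10.80 and 10.59 untreated, 9.47, 9.32 and 9.07 at 48 h and 9.03, 9.44 and 9.0 at 72 h in knockout cells. Wild-type HARS1 read 10.74, 10.77 and 10.73 untreated, 9.62, 9.34 and 9.08 at 48 h and 9.27, 9.36 and 8.84 at 72 h. Treated arrays lay below untreated ones throughout, and HARS1 fell 2.98-fold at 72 h in knockout cells (adjusted p = 2.17e-06) and 3.01-fold in wild-type cells (adjusted p = 1.45e-06).
FARSB, the beta subunit of cytosolic phenylalanyl-tRNA synthetase, read 10.97, 10.95 and 11.02 untreated, 9.93, 9.03 and 9.90 at 48 h and 9.92, 9.98 and 9.73 at 72 h in knockout cells. Wild-type FARSB read 11.03, 10.95 and 11.05 untreated, 9.66, 9.52 and 9.24 at 48 h and 8.99, 9.48 and 9.21 at 72 h. FARSB fell by 1.10 at 72 h in knockout cells (adjusted p = 0.000277) and by 1.78 in wild-type cells (adjusted p = 2.19e-06). FARSA, the alpha subunit, fell as well, with log2 differences between -0.52 and -0.83.
QARS1, the glutamine enzyme, read 10.91, 10.93 and 10.94 untreated, 10.29, 10.20 and 10.34 at 48 h and 10.36, 10.42 and 10.32 at 72 h in knockout cells. Wild-type QARS1 read 10.92, 10.89 and 10.90 untreated, 10.64, 10.31 and 10.46 at 48 h and 10.45, 10.36 and 10.36 at 72 h. It fell in all 4 comparisons, by 0.43 to 0.65 on the log2 scale. KARS1 (lysine) and RARS1 (arginine) also fell in all 4, by 0.41 to 0.90. IARS1 and LARS1, for isoleucine and leucine, fell in wild-type cells at 72 h by 0.57 and 0.55 (adjusted p = 0.026 and 0.0242) and had differences between -0.45 and 0.04 in the other comparisons, none called.

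TARS1, the cytosolic threonine enzyme and a gene chosen for display after its values were seen, went the other way. TARS1 read 10.31, 10.29 and 10.30 untreated, 10.99, 10.49 and 11.29 at 48 h and 11.17, 11 and 11.12 at 72 h in knockout cells. Wild-type TARS1 read 10.31, 10.30 and 10.32 untreated, 11.05, 10.78 and 11.14 at 48 h and 10.76, 10.77 and 11.08 at 72 h. Every treated array lay above every untreated one, and TARS1 rose by 0.80 at 72 h in knockout cells (1.74-fold, adjusted p = 0.000672) and by 0.56 in wild-type cells (1.47-fold, adjusted p = 0.00769). With only replicates 2 and 3 kept, TARS1 was not called at knockout 48 h or in wild-type cells at either time. With only replicates 1 and 2 kept, it was not called at knockout 48 h. Those fits have fewer arrays per group.
NARS1, the cytosolic asparagine enzyme, read 10.31, 10.29 and 10.21 untreated, 10.48, 10.24 and 10.68 at 48 h and 10.54, 10.60 and 10.62 at 72 h in knockout cells. Wild-type NARS1 read 10.37, 10.42 and 10.47 untreated, 10.46, 10.36 and 10.51 at 48 h and 10.17, 10.24 and 10.28 at 72 h. NARS1 rose by 0.32 at 72 h in knockout cells (adjusted p = 0.0151), a call lost without untreated knockout replicate 3 (0.29, adjusted p = 0.0567) and with median-centred arrays (0.27, adjusted p = 0.054), and differed by -0.19 in wild-type cells (adjusted p = 0.119). Without knockout 48 h replicate 2 it was called higher at 48 h as well (0.31, adjusted p = 0.00873).
SARS1, the cytosolic serine enzyme, read 9.50, 9.49 and 9.51 untreated, 9.57, 9.18 and 10.02 at 48 h and 9.85, 9.54 and 10.08 at 72 h in knockout cells. Wild-type SARS1 read 9.46, 9.56 and 9.48 untreated, 9.64, 9.59 and 10.01 at 48 h and 9.33, 9.44 and 9.74 at 72 h. Replicate 3 was the highest in each of the 4 treated groups, and SARS1 passed no ATRA test in the deposited values. AARS1 and WARS1, for alanine and tryptophan, had positive differences in all 4 comparisons, of 0.22 to 0.66, with no call.

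The transporters carry amino acids across the cell membrane: SLC7A5 brings in leucine and other large neutral amino acids, SLC7A11 exchanges glutamate for cystine, and SLC3A2 is the heavy chain that both need. SLC7A5 read 11.40, 11.43 and 11.45 untreated, 10.27, 9.55 and 10.96 at 48 h and 10.87, 10.27 and 10.92 at 72 h in knockout cells. Wild-type SLC7A5 read 11.44, 11.41 and 11.41 untreated, 9.76, 9.50 and 10.62 at 48 h and 8.80, 9.60 and 10.58 at 72 h. Every treated array was below every untreated one. SLC7A5 fell by 1.46 and 1.76 at 48 and 72 h in wild-type cells (adjusted p = 0.00724 and 0.0017), by 1.17 at 48 h in knockout cells (adjusted p = 0.0241), and differed by -0.74 at 72 h in knockout cells (adjusted p = 0.134).
SLC7A11 read 9.10, 9.08 and 9.10 untreated, 6.75, 5.62 and 9.02 at 48 h and 8.99, 6.72 and 8.80 at 72 h in knockout cells. Wild-type SLC7A11 read 9.07, 9.11 and 9.13 untreated, 7.27, 6.38 and 8.34 at 48 h and 7.21, 6.17 and 8.36 at 72 h. Untreated arrays agreed within 0.1, whereas the treated arrays of 1 group differed by up to 3.40, with replicate 2 lowest in all 4 groups. The drop passed the test in knockout cells at 48 h (-1.96 ± 0.75, SE, adjusted p = 0.0462) and not at 72 h (-0.92, adjusted p = 0.336), nor in wild-type cells (-1.77, adjusted p = 0.0725, and -1.86, adjusted p = 0.0554).
SLC3A2 read 10.90, 10.92 and 10.87 untreated, 9.91, 9.46 and 10.74 at 48 h and 10.45, 9.93 and 10.69 at 72 h in knockout cells. Wild-type SLC3A2 read 10.89, 10.88 and 10.89 untreated, 10.14, 9.77 and 10.58 at 48 h and 9.87, 9.77 and 10.56 at 72 h. It too was lower on every treated array, and it fell in knockout cells at 48 h (-0.86, adjusted p = 0.0232) and in wild-type cells at 72 h (-0.82, adjusted p = 0.0277). The knockout 48 h calls of all 3 transporters were lost without any 1 of the 3 untreated knockout arrays (adjusted p = 0.0509 to 0.0975), without knockout 48 h replicate 1 (0.117 for SLC7A11, 0.0509 for SLC7A5 and 0.0661 for SLC3A2) and without knockout 48 h replicate 2 (0.232, 0.128 and 0.129). Without that replicate 2 the SLC7A11 difference was -1.21. Quantile normalization ended the same 3 calls (adjusted p = 0.102, 0.0572 and 0.0951) and the wild-type 72 h call of SLC3A2 (0.111). The wild-type 72 h call of SLC3A2 was lost without any 1 of the untreated wild-type arrays (adjusted p = 0.0622 to 0.0652) or without wild-type 72 h replicate 1 (0.0865) or 2 (0.104). Leaving out replicate 3 turned SLC7A11 into a call in the wild-type line at 48 h (-2.28, adjusted p = 0.0443) and 72 h (-2.41, adjusted p = 0.0284), and SLC3A2 into one at 48 h (-0.93, adjusted p = 0.029).

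The serine and glycine enzymes turn a glycolytic intermediate into serine (PHGDH, PSAT1, PSPH) and serine into glycine and one-carbon units (SHMT1 in the cytosol, SHMT2 and MTHFD2 in mitochondria). Of the 6 genes, 1 fell in knockout cells at 48 h and 1 at 72 h, none in the wild-type line at 48 h and 1 at 72 h, and none rose. In the same order 19.9%, 19.2%, 19.6% and 21% of all probe sets fell, so 1 of 6 lies near that share. The shares of all probe sets that rose were 21.5%, 22.8%, 19.3% and 23.1%. PSPH read 9.71, 9.59 and 9.74 untreated, 9.41, 9.02 and 9.43 at 48 h and 9.33, 9.42 and 9.38 at 72 h in knockout cells. Wild-type PSPH read 9.65, 9.58 and 9.63 untreated, 9.25, 9.24 and 9.44 at 48 h and 8.82, 9.23 and 9.06 at 72 h. Treated arrays lay below untreated ones in both lines. PSPH fell by 0.39 in knockout cells at 48 h (adjusted p = 0.0165) and by 0.58 in wild-type cells at 72 h (adjusted p = 0.0011), and both calls were lost under quantile normalization (adjusted p = 0.489 and 0.0563). The knockout call was also lost without untreated knockout replicate 1 (0.053) or 3 (0.0569), or knockout 48 h replicate 2 (0.0817), and without wild-type 48 h replicate 3 PSPH was called in wild-type cells at 48 h (-0.38, adjusted p = 0.0449).
SHMT1 read 8.01, 8.04 and 7.81 untreated, 7.80, 7.58 and 7.67 at 48 h and 7.11, 7.91 and 7.49 at 72 h in knockout cells. Wild-type SHMT1 read 7.81, 7.80 and 7.76 untreated, 7.96, 7.69 and 7.58 at 48 h and 7.81, 7.72 and 7.60 at 72 h. It fell by 0.45 in knockout cells at 72 h (adjusted p = 0.0348), where replicate 2 overlapped the untreated arrays. That call was lost without untreated knockout replicate 1 (adjusted p = 0.0973) or 2 (0.107), without knockout 72 h replicate 1 (-0.25, 0.193) or 3 (0.0762), and under quantile normalization (0.199).

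The other 4 enzymes of this group passed no ATRA test and shared a wide spread among treated arrays. PHGDH, the first enzyme of serine synthesis, read 9.36, 9.34 and 9.21 untreated, 8.31, 8.23 and 10.14 at 48 h and 10.05, 8.51 and 10.07 at 72 h in knockout cells. Wild-type PHGDH read 9.22, 9.26 and 9.26 untreated, 8.01, 8.03 and 9.70 at 48 h and 7.71, 7.93 and 9.49 at 72 h. Replicate 3 stood above the untreated arrays and replicate 2 below them in all 4 treated groups, with knockout 72 h replicate 1 beside replicate 3 and the other replicates 1 beside replicate 2.
PSAT1 read 8.90, 9.28 and 9.28 untreated, 8.68, 8.01 and 9.70 at 48 h and 9.13, 8.65 and 9.34 at 72 h in knockout cells. Wild-type PSAT1 read 9.18, 9.32 and 9.15 untreated, 8.23, 8.42 and 9.18 at 48 h and 7.64, 7.93 and 9.28 at 72 h. PSAT1 was highest on replicate 3 in each treated group, and its wild-type 72 h difference of -0.93 (adjusted p = 0.0726) became -1.43 (adjusted p = 0.00708) without that replicate.
MTHFD2 read 10.82, 10.80 and 10.79 untreated, 10.36, 9.80 and 11.17 at 48 h and 11.03, 10.42 and 11.08 at 72 h in knockout cells. Wild-type MTHFD2 read 11.01, 10.97 and 10.96 untreated, 10.15, 10.19 and 11.01 at 48 h and 10.21, 10.24 and 10.99 at 72 h. Without knockout 48 h replicate 3 MTHFD2 was called lower there (-0.72, adjusted p = 0.0467), and SHMT2 was also highest on replicate 3 in the treated groups or level with replicate 1. SHMT2 read 10.91, 10.92 and 10.86 untreated, 10.65, 10.30 and 11.29 at 48 h and 11.28, 10.77 and 11.28 at 72 h in knockout cells. Wild-type SHMT2 read 10.93, 10.94 and 10.95 untreated, 10.60, 10.47 and 11.15 at 48 h and 10.46, 10.57 and 11.10 at 72 h. A dimmer probe set of MTHFD2 was called lower in wild-type cells at 48 h (-0.68, adjusted p = 0.0444) and 72 h (-0.74, adjusted p = 0.0259), where the brighter one was not (-0.53 and -0.50). A dimmer probe set of PSPH was called lower in knockout cells at 72 h as well (-0.60, adjusted p = 0.00166).

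ATF4 and its stress targets gave 0 calls of 5 in every ATRA comparison by limma, and 0 of 5 had an unadjusted p under 0.05. Of all probe sets 40.1% were called in none of the 4 ATRA comparisons. ASNS makes asparagine, CHAC1 degrades glutathione, DDIT3 (CHOP) is a transcription factor of the stress response and TRIB3 is a pseudokinase that ATF4 and DDIT3 induce. ATF4 itself read 10.49, 10.50 and 10.46 untreated, 10.66, 10.52 and 10.82 at 48 h and 10.95, 10.58 and 10.78 at 72 h in knockout cells. Wild-type ATF4 read 10.54, 10.57 and 10.58 untreated, 10.54, 10.36 and 10.96 at 48 h and 10.61, 10.50 and 10.84 at 72 h. Its log2 differences were 0.18, 0.29, 0.06 and 0.09 in the order knockout 48 h, knockout 72 h, wild-type 48 h, wild-type 72 h. A second, dimmer ATF4 probe set went the other way and was called lower in all 4 (-0.60, -0.43, -0.88 and -0.56, adjusted p = 0.0078, 0.0436, 0.000451 and 0.0106), so the array gave no single direction for the ATF4 transcript. After quantile normalization the brighter probe set was called higher in knockout cells (0.39 at 48 h, adjusted p = 0.0427, and 0.47 at 72 h, adjusted p = 0.0165), and without knockout 72 h replicate 2 it was called higher at 72 h (0.38, adjusted p = 0.0499).
ASNS read 7.71, 7.66 and 7.63 untreated, 7.65, 7.41 and 10.08 at 48 h and 9.96, 7.66 and 9.99 at 72 h in knockout cells. Wild-type ASNS read 7.84, 7.70 and 7.70 untreated, 7.62, 7.12 and 9.65 at 48 h and 7.74, 7.47 and 9.53 at 72 h. Treated ASNS values thus lay either between 7.12 and 7.74 or between 9.53 and 10.08. Its largest group difference, 1.54 in knockout cells at 72 h, did not pass the test (adjusted p = 0.117), and did without knockout 72 h replicate 2 (2.31, adjusted p = 0.0252).
DDIT3 read 7.31, 7.43 and 7.26 untreated, 7.0, 7.21 and 9.04 at 48 h and 9.04, 7.24 and 8.73 at 72 h in knockout cells. Wild-type DDIT3 read 7.53, 7.49 and 7.61 untreated, 7.49, 7.57 and 8.77 at 48 h and 7.38, 6.79 and 8.58 at 72 h. The same 5 arrays as for ASNS stood above all untreated arrays, and without knockout 72 h replicate 2 the knockout difference of DDIT3 at 72 h became 1.55 (adjusted p = 0.0335). With array weights ASNS (1.68, adjusted p = 0.0226) and DDIT3 (1.04, adjusted p = 0.0489) were called there too. TRIB3 read 8.37, 8.37 and 8.29 untreated, 7.21, 8.0 and 8.95 at 48 h and 9.16, 7.61 and 9.16 at 72 h in knockout cells. Wild-type TRIB3 read 8.32, 8.33 and 8.30 untreated, 7.31, 7.63 and 8.75 at 48 h and 7.32, 7.82 and 8.91 at 72 h. On those 5 arrays TRIB3 was above its untreated level, and on the other 7 treated arrays below it.
CARS1, the cytosolic cysteine enzyme and another gene chosen for display after its values were seen, read 7.76, 7.54 and 7.33 untreated, 7.39, 7.49 and 8.86 at 48 h and 8.68, 7.76 and 8.65 at 72 h in knockout cells. Wild-type CARS1 read 7.49, 7.59 and 7.43 untreated, 7.68, 7.59 and 8.81 at 48 h and 7.48, 7.62 and 8.77 at 72 h. CARS1 was highest on the same 5 arrays. CHAC1 did not share this. CHAC1 read 5.98, 5.81 and 5.90 untreated, 6.07, 6.16 and 6.13 at 48 h and 5.88, 5.94 and 5.75 at 72 h in knockout cells. Wild-type CHAC1 read 6.10, 6.05 and 6.02 untreated, 5.97, 5.73 and 6.01 at 48 h and 6.10, 5.75 and 6.08 at 72 h. It was the dimmest of the 49 genes, at the 46.3 percentile of probe sets, where the array resolves little.

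**Figure D2:**
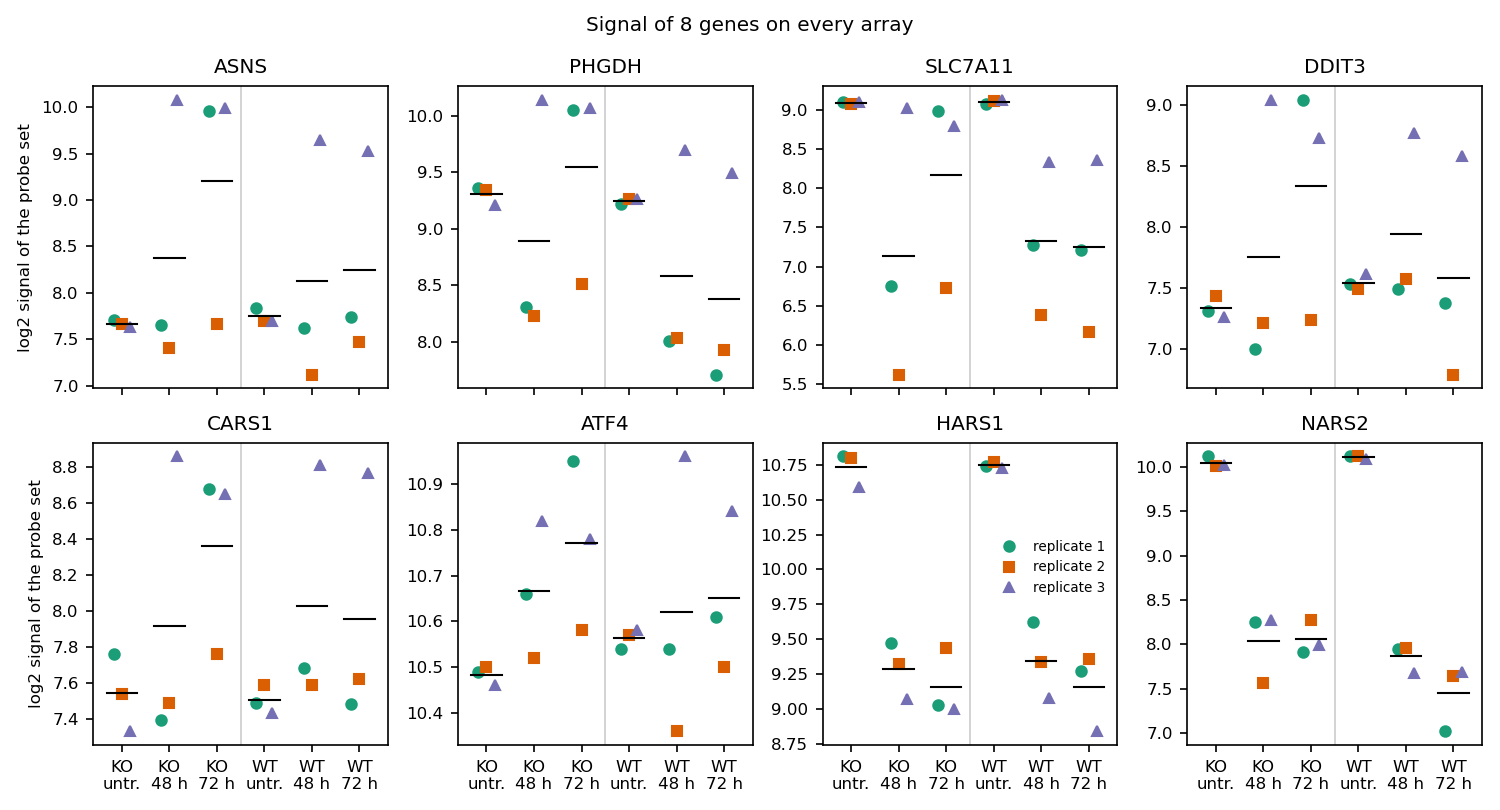
Log2 level of 8 genes on every array (points) with group means (bars), TG2 knockout (KO) left of wild-type (WT) along the horizontal axis and marker shape showing the replicate number. ASNS, PHGDH, DDIT3 and CARS1 split the treated arrays, with ASNS at 9.53 to 10.08 on 5 of them and at 7.12 to 7.74 on the others, while HARS1 and NARS2 lie below the untreated level on every treated array.

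Treated arrays of 1 group differed widely for part of the 49 genes, and the values are given here by replicate number. The labels number the biological replicates 1 to 3 in each group and do not say whether a number marks a shared culture, day or batch. The comparison of replicate 3 with replicate 2 was chosen after the values were seen, and it is given without a test. Untreated cells showed little spread: the median SD of the 49 genes was 0.0458 in knockout and 0.0306 in wild-type cells, below the 0.0985 and 0.0757 of all probe sets. With ATRA it was 0.351 and 0.246 at 48 and 72 h in knockout cells and 0.268 and 0.265 in wild-type cells, above the 0.243, 0.226, 0.231 and 0.215 of all probe sets. The 49 genes and all probe sets are not of like brightness. Apart from CHAC1, at the 46.3 percentile, the 49 genes lay at the 64.6 percentile of probe sets or higher. The part of brightness in these differences was not tested.

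Replicate 3 lay above replicate 2 in all 4 treated groups for 23 of the 49 genes, against 10.9% of all probe sets. These were 12 of 19 cytosolic synthetases, 4 of 5 genes of the ATF4 group, 4 of 6 serine, glycine and one-carbon enzymes, 3 of 3 transporters and 0 of 16 mitochondrial synthetases. Replicate 3 lay below replicate 2 in all 4 groups for 7 genes (10.1% of all probe sets), namely the mitochondrial AARS2, EARS2, HARS2, LARS2 and VARS2 and the cytosolic FARSA and HARS1. A gap of at least 1 log2 unit in all 4 groups was found for 4 of the 49 genes and for 28 probe sets in all (0.0841%). Those 4 genes were ASNS, DDIT3, PHGDH and SLC7A11. Replicate 1 lay above replicate 2 in all 4 groups for 5 genes (9.34% of all probe sets).

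SLC7A11 was 3.40, 2.08, 1.96 and 2.19 higher on replicate 3 than on replicate 2 in the order knockout 48 h, knockout 72 h, wild-type 48 h, wild-type 72 h. ASNS was 2.67, 2.33, 2.53 and 2.06 higher, PHGDH 1.91, 1.56, 1.67 and 1.56, and DDIT3 1.83, 1.49, 1.20 and 1.79. TRIB3 (0.95, 1.55, 1.12 and 1.09) and CARS1 (1.37, 0.89, 1.22 and 1.15) came next. In TG2 knockout cells at 72 h replicate 1 was also above replicate 2, by 2.30 for ASNS, 2.27 for SLC7A11, 1.80 for DDIT3 and 1.54 for PHGDH. For all of these genes replicate 3 read above replicate 2 in each treated group, in both lines and at both times.

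The arrays that stood high for the ATF4 group were, with 1 exception, not those that stood apart on the first principal component. Of the 4 treated arrays nearest to untreated cells, knockout 48 h replicate 3 was high for ASNS and the other 3 were not. Averaged over the 5 genes of the ATF4 group, the difference from the untreated mean of the same line was -0.23, -0.08 and 1.06 on replicates 1, 2 and 3 of knockout 48 h and 1.05, -0.14 and 0.94 of knockout 72 h. In wild-type cells it was -0.26, -0.36 and 0.78 at 48 h and -0.22, -0.38 and 0.74 at 72 h. Over the 16 mitochondrial synthetases it was -0.50, -0.77 and -0.64, then -0.69, -0.39 and -0.74 in knockout cells, and -0.36, -0.53 and -0.79, then -0.80, -0.51 and -0.84 in wild-type cells. The ATF4 group changed sign between replicates and the mitochondrial synthetases were lower on every treated array. Cycling cell markers, by the same measure, ran from -0.28 to -0.85. They showed replicate 3 above replicate 2 in all 4 groups for 0 of 10 genes and below it for 4 (10.9% and 10.1% of all probe sets).

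**Figure D3:**
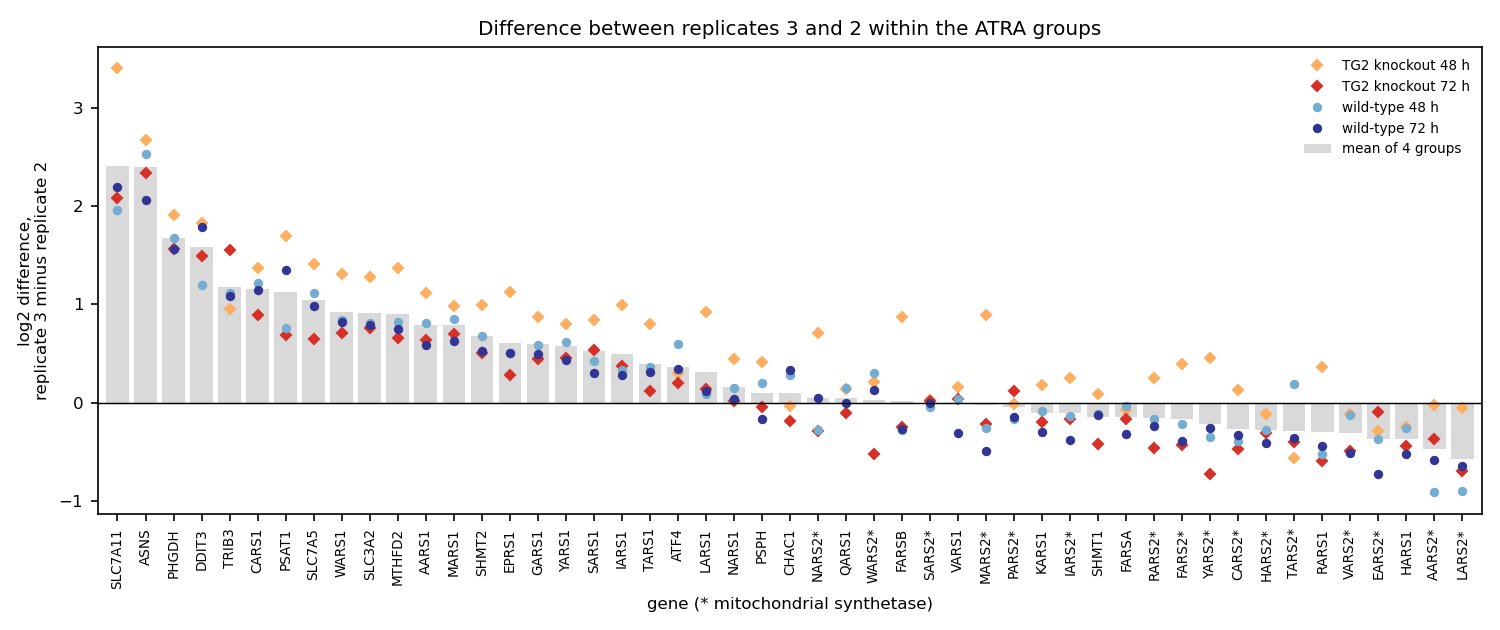
Replicate 3 minus replicate 2 on the log2 scale for each of the 49 genes in the 4 ATRA groups (points) with their mean (grey bar), mitochondrial synthetases marked with an asterisk. SLC7A11 (mean 2.41) and ASNS (2.40) lie furthest above 0 and LARS2 (-0.57) furthest below.

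Genes that work with the 49 were read from 6 further lists, from which up to 4 called genes with the largest wild-type change at 72 h are named. For their counts, 21.5% of all probe sets rose and 19.9% fell at 48 h in knockout cells, and 22.8% and 19.2% at 72 h. The shares in wild-type cells were 19.3% and 19.6% at 48 h and 23.1% and 21% at 72 h. Of 10 partners of the synthetases, 6 and 5 fell at 48 and 72 h in knockout cells and 6 and 7 in wild-type cells, and none rose. TARS3, a threonyl-tRNA synthetase paralogue, fell by 1.03 at 72 h in knockout cells and by 1.27 in wild-type cells (adjusted p = 0.000144 and 1.6e-05). MTFMT, which formylates the mitochondrial initiator tRNA, fell by 0.83 and 1.06 in the same order, and the scaffold protein AIMP1 of the multisynthetase complex by 0.46 and 0.80. XPOT, the export receptor for tRNA, fell by 0.87 in wild-type cells (adjusted p = 0.0154), and its difference in knockout cells was 0.13 (adjusted p = 0.717).
Of 13 genes for eIF2, its kinases and its exchange factor eIF2B, 9 fell and none rose in each of the 4 comparisons. EIF2B4, EIF2S2, EIF2B3 and EIF2B1 fell by 1.12, 0.96, 0.71 and 0.61 at 72 h in knockout cells and by 1.32, 1.17, 0.90 and 0.88 in wild-type cells (adjusted p at most 0.00212).

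Of 20 other ATF4 targets, 4 rose and 2 fell at 48 h and 5 rose and 1 fell at 72 h in knockout cells, and 3 rose and 1 fell at each time in wild-type cells. The shares that rose (4, 5, 3 and 3 of 20) lay near or below the 21.5%, 22.8%, 19.3% and 23.1% of all probe sets. CEBPB, a transcription factor of myeloid maturation, rose by 1.59 at 72 h in knockout cells and by 1.89 in wild-type cells (adjusted p = 3.56e-07 and 4.28e-08), and VLDLR, a lipoprotein receptor, by 2.03 and 1.52. JDP2, a transcription factor, rose by 0.39 and 0.46 (adjusted p = 0.0473 and 0.021). PYCR1, which makes proline in mitochondria, fell by 0.83 and 0.98. Replicate 3 lay above replicate 2 in all 4 treated groups for 10 of the 20 (10.9% of all probe sets). Among them were SESN2, which restrains mTORC1 (1.32, 1.62, 1.45 and 0.94), and PCK2, the mitochondrial PEP carboxykinase (1.17, 1.05, 0.94 and 0.98). Those 2 were chosen after their values were seen.
Of 16 other amino acid transporters, 1 rose and 6 fell at 48 h and 3 fell at 72 h in knockout cells, and wild-type cells had 1 that rose and 4 that fell at 48 h and 6 that fell at 72 h. The 3 of 16 in knockout cells at 72 h and the 4 of 16 lay near the 19.2% and 19.6% of all probe sets. SLC1A4, a carrier of alanine and serine, fell by 1.04 at 72 h in knockout cells and by 1.76 in wild-type cells, and SLC7A6 by 1.02 and 1.36. SLC38A1, a glutamine carrier, fell by 1.44 in wild-type cells (adjusted p = 0.000357) and differed by -0.35 in knockout cells (adjusted p = 0.293). SLC38A9, a lysosomal carrier, fell by 0.84 in wild-type cells (adjusted p = 0.0101) and differed by -0.56 in knockout cells (adjusted p = 0.0723). Replicate 3 lay above replicate 2 in all 4 treated groups for 8 of these 16 (10.9% of all probe sets).
Of 13 one-carbon partners, 7 fell at 48 h and 6 fell and 1 rose at 72 h in knockout cells, while wild-type cells had 7 that fell and 1 that rose at 48 h and 9 and 1 at 72 h. MTHFD2L fell by 1.73 at 72 h in knockout cells and by 1.61 in wild-type cells, SLC25A32, the mitochondrial folate carrier, by 0.93 and 1.28, and TYMS, thymidylate synthase, by 1.10 and 1.09. MTHFD1L, a mitochondrial one-carbon enzyme, fell by 1.01 in wild-type cells (adjusted p = 0.000285) and differed by -0.39 in knockout cells (adjusted p = 0.0893). Of 15 endoplasmic reticulum chaperone and stress genes, 6 fell in knockout cells at each time and 7 in wild-type cells at each time, while 1 and 2 rose in knockout cells and 2 and 1 in wild-type cells at 48 and 72 h. XBP1 fell by 0.85 and 1.05, the chaperone HSPA5 by 0.59 and 0.67 and CALR by 0.86 and 0.86 in knockout and wild-type cells at 72 h. HERPUD1 fell by 0.92 in wild-type cells (adjusted p = 0.0148) and differed by -0.48 in knockout cells (adjusted p = 0.179).

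The second question was whether the lines differed at the same time point. None of the 49 genes passed the test at any of the 3 times, where few probe sets did: 0.003% higher and 0.003% lower without treatment, 0.00901% and 0.012% at 48 h, and 0.045% and 0.0511% at 72 h. The genes with an unadjusted p under 0.05 numbered 0, 1 and 11 of 49 without treatment, at 48 h and at 72 h, and 382, 1972 and 3713 of all 33297 probe sets. These counts are not on a like footing, because the fit pools the spread of all 6 groups. The median SD of the 49 genes was 0.0306 and 0.0458 in the untreated groups and 0.246 to 0.351 with ATRA. Pooling thus typically makes the SE too large for the untreated comparison and too small for the treated ones. The lack of calls without treatment does not show that the lines were equal then. Medians of knockout minus wild-type were 0, 0.02 and 0.32 for the 49 genes and -0.01, 0.01 and 0.01 for all probe sets, and 24, 26 and 41 of the 49 differences were positive.

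Without treatment the smallest p belonged to SARS2, 0.17 higher in knockout cells (95% confidence interval -0.03 to 0.37, unadjusted p = 0.0967), and NARS1 (-0.15, unadjusted p = 0.139). The knockout arrays of 5 genes lay wholly above wild-type (IARS2, MARS2, PARS2, RARS2 and SARS2, all mitochondrial synthetases) and those of 8 wholly below (ATF4, CHAC1, DDIT3, MTHFD2, NARS1, RARS1, SHMT2 and YARS1), where 8.84% and 9.3% of all probe sets did. With array weights SARS2 was called higher (0.19, adjusted p = 0.0358). At 48 h the smallest p belonged to QARS1 (-0.19, interval -0.37 to -0.02, adjusted p = 0.793) and CHAC1 (0.22, adjusted p = 0.87). CHAC1 was the 1 gene whose knockout arrays all lay above the wild-type arrays (3.79% of probe sets), and 0 lay wholly below (2.97%).

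At 72 h 41 of the 49 differences were positive and none was called. WARS2 was 0.57 ± 0.15 (SE) higher (95% confidence interval 0.26 to 0.88, adjusted p = 0.156), NARS1 0.36 ± 0.10 (0.15 to 0.56, adjusted p = 0.178), FARSB 0.65 (adjusted p = 0.217), NARS2 0.61 (adjusted p = 0.237) and SLC7A5 1.03 (adjusted p = 0.336). PHGDH, ASNS and SLC7A11 were 1.17, 0.96 and 0.92 higher (adjusted p = 0.467, 0.71 and 0.716). Medians by role were 0.63 for the ATF4 group, 0.36 for cytosolic synthetases (17 of 19 positive), 0.12 for mitochondrial synthetases (12 of 16 positive), 0.38 for serine, glycine and one-carbon enzymes and 0.92 for transporters. The knockout arrays of 10 genes lay wholly above wild-type (FARSB, IARS1, IARS2, KARS1, LARS1, MARS2, NARS1, NARS2, PSPH and WARS2; 6.65% of all probe sets) and 0 wholly below (5%). MYC was 0.35 higher in knockout than in wild-type cells at 72 h (adjusted p = 0.45).

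Much of the 72 h difference of the stress genes lay in replicate 1. Knockout minus wild-type by replicate number 1, 2 and 3 was 2.22, 0.19 and 0.46 for ASNS, 2.34, 0.58 and 0.58 for PHGDH, 1.66, 0.45 and 0.15 for DDIT3, 1.78, 0.55 and 0.44 for SLC7A11 and 1.84, -0.21 and 0.25 for TRIB3. Some other genes had closer values on the 3 numbers: 0.37, 0.36 and 0.34 for NARS1, 0.93, 0.50 and 0.52 for FARSB and 0.89, 0.64 and 0.30 for NARS2. WARS2, with the smallest p at 72 h, did not, with 0.88, 0.74 and 0.09. For SLC7A5 the values were 2.07, 0.67 and 0.34, again largest on replicate 1. Over the 49 genes the median was 0.42, 0.19 and 0.16, and knockout was above wild-type for 39, 43 and 39 of them. The same medians at 48 h were -0.06, -0.15 and 0.16, with knockout above for 18, 14 and 41 genes. Without knockout 72 h replicate 1, ASNS was 0.58 higher (adjusted p = 0.882), and the median was 0.37 in the ATF4 group and 0.31 over all 49 genes. With the 4 treated arrays nearest to untreated cells left out, FARSB was 0.60 and NARS1 0.35 higher at 72 h.

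**Figure D4:**
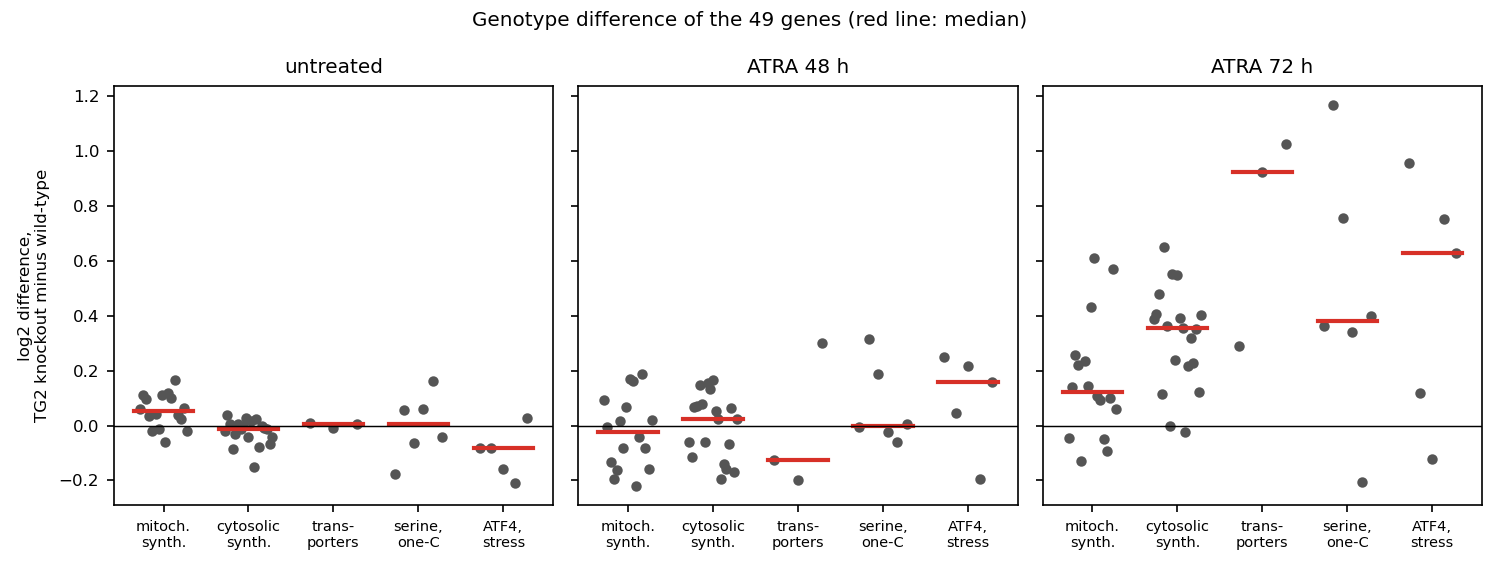
TG2 knockout minus wild-type on the log2 scale for the 49 genes (points) by role, without treatment and after 48 and 72 h of ATRA, with the median of each role as a red line. At 72 h the role medians run from 0.12 (mitochondrial synthetases) to 0.92 (transporters), and without treatment the points lie between -0.21 and 0.17.

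The third question was whether ATRA acted differently in the 2 lines, tested as the ATRA response of knockout minus that of wild-type cells. No gene of the 49 passed the test, and of all probe sets 0.003% were higher and 0% lower at 48 h and 0% and 0% at 72 h. Unadjusted p was under 0.05 for 1 gene at 48 h and 5 at 72 h, and for 960 and 1553 of all probe sets. At 48 h the smallest p belonged to CHAC1 (0.38, unadjusted p = 0.042) and QARS1 (-0.22), and at 72 h to NARS1 (0.51 ± 0.14, SE, unadjusted p = 0.00185) and FARSB (0.68, unadjusted p = 0.0227), with an adjusted p of 1 for each. The medians were 0.03 and 0.29 for the 49 genes against 0.02 for all probe sets. The larger wild-type changes of FARSB, NARS2 and SLC7A5 at 72 h are therefore not shown to differ from those of knockout cells.

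Between 48 and 72 h of ATRA no gene of the 49, and no probe set at all (0% in both directions in both lines), passed the test. Unadjusted p was under 0.05 for 1 gene of the 49 in knockout and 4 in wild-type cells, and for 2732 and 1952 probe sets. In knockout cells the smallest p belonged to CHAC1 (-0.26, adjusted p = 0.596) and WARS2 (0.27, unadjusted p = 0.0848), and in wild-type cells to WARS2 (-0.46 ± 0.15, SE, adjusted p = 0.616) and PSPH (-0.27, adjusted p = 0.826). The median difference was 0.16 in knockout cells, with 39 of 49 positive, and -0.14 in wild-type cells, with 8 of 49 positive. The knockout 72 h replicate 1 array, high for ASNS and PHGDH where the 48 h replicate 1 array was not, enters the first of these values.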

How the data were processed

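The authors deposited 1 table of processed values for 18 arrays, and its values were read as log2 intensities because they run from 0.73 to 13.56 with array medians of 6.12 to 6.26. Per the labels' protocols, total RNA was extracted with RNeasy and labelled from 300 ng with the WT Expression kit. How background, normalization and probe summary were handled is not given in the sources used here. Signal precision is limited by 3 arrays per group. Of 33297 probe sets, 19460 name 1 gene, 1754 several and 12083 none in the platform annotation, and a gene was read through its brightest probe set of 1 gene. VARS1 has a pair of probe sets with equal values.

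All probe sets were fitted with limma 3.58.1 (R 4.3.3), 1 mean per group and 12 residual degrees of freedom, eBayes with trend, Benjamini-Hochberg adjustment over all probe sets and a two-sided threshold of 0.05, in 11 comparisons. The script was tested on simulated data. Differences are of log2 values and SE is limma's. Members and lists were chosen with earlier results of these data known. Named in full are the genes outside the synthetases, the 6 synthetases with the largest and 4 with the smallest wild-type change at 72 h, and the 2 smallest p-values of each comparison without a call.

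Replicate numbers were checked as pairs by correlating deviations from group means. Same-numbered arrays of the 2 lines gave r = 0.103, 0.16 and 0.138 at 72 h, 0.196, 0.194 and 0.089 at 48 h and -0.06, -0.056 and -0.128 without treatment. Between 72 and 48 h r was -0.03, -0.002 and 0.05 in knockout and 0.095, 0.137 and 0.186 in wild-type cells. Figures used matplotlib 3.10.9 and tables pandas 2.3.3.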

Additional observations from a re-analysis of the deposited data

How the results depend on the processing

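ATF4 in knockout cells was called higher by its brighter probe set after quantile normalization (0.39 and 0.47 at 48 and 72 h) and lower by the dimmer one in the deposited values (-0.60 and -0.43), while the reported value was not called. Counts of called genes that moved by over 1.5 times are given here as higher or lower, for knockout 48 h, knockout 72 h, wild-type 48 h and wild-type 72 h over untreated cells, where the deposited values gave 1, 3, 2 and 2 higher and 19, 17, 16 and 20 lower. Quantile normalization gave 6, 10, 4 and 4 higher (5581, 5462, 5564 and 6195 of all 33297 probe sets), and 11 lower at knockout 72 h (5254 of all). Median centring gave 1 higher in wild-type cells at each time (5950 and 7042 of all probe sets at 48 and 72 h). Array weights gave 2 and 10 higher in knockout cells and 1 gene higher in knockout than in wild-type cells without treatment. Fitting only the compared arrays gave 6 higher at knockout 72 h and 1 at wild-type 72 h. The replicate block gave 6 higher at knockout 72 h, left no call between the lines at 72 h and moved no other count by as much. Same-numbered arrays of the 2 lines had small positive correlations at 72 h (r = 0.103, 0.16 and 0.138) and 48 h (0.196, 0.194 and 0.089). Arrays of unlike number gave r from -0.163 to 0.0296 at 72 h and from -0.238 to 0.0936 at 48 h. Deviations within a group sum to 0, so these values are not independent of the same-numbered ones. The labels do not state a pairing. With the block ASNS at knockout 72 h and SLC7A11 in wild-type cells passed the test (adjusted p = 0.0343, 0.0144 and 0.00986). Leaving out 1 array gave 1 to 2, 1 to 6, 1 to 2 and 1 to 2 higher, and 14 to 21, 13 to 18, 14 to 16 and 17 to 22 lower; the 1 at knockout 72 h came without untreated knockout replicate 3 and the 6 without knockout 72 h replicate 2. The other comparisons stayed at 0 to 0. After the data were seen, only 2 replicate numbers were kept. Numbers 2 and 3 gave 0, 1, 0 and 0 higher and 11 lower at knockout 72 h, numbers 1 and 3 gave 2 higher and 12 lower at knockout 48 h and 1 higher in wild-type cells at each time, and numbers 1 and 2 gave 0 higher at knockout 48 h and 1 in wild-type cells at each time. Leaving out the 4 treated arrays nearest to untreated cells, also chosen after the data were seen, gave 0, 9 and 1 higher at knockout 48 h, knockout 72 h and wild-type 48 h, 3 higher in knockout than in wild-type cells at 72 h, and 13 higher at 72 than at 48 h in knockout cells, whose 48 h group then has 1 array that is assumed to vary like the others. The causes were not tested. Counts over all probe sets are given here only for quantile normalization and median centring. For the other settings the counts were not set against all probe sets. A change in them is therefore not shown to be particular to these genes. Over all alternatives 421 counts of called genes stayed within 1.5 times and 43 moved. Of the values for single genes 5856 kept their side of the threshold, 235 more stayed uncalled but moved by more than their standard error, 97 passed it newly and 65 no longer passed; of the medians 1338 stayed and 54 moved. Dim probe sets such as that of CHAC1 limit what can be seen.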
